A study of Gallus gallus with 6 samples.

Results

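HOXB1, HOXB3, HOXD3, HOXD4, HOXA7, HOXB7, HOXB8 and HOXB9 were described along the body of the chick embryo, as a named set of 8 HOX genes with axial roles. They were found in the deposited table by symbol or by the HOX name in the description, 8 of 8 among 17781 genes. A further 8 entries of HOX groups 1 to 9 serve as the comparison. The group number is the gene's place in its cluster, counted from the end used nearest the head.

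HOX genes code for homeodomain transcription factors that give cells their position along the body. They lie in clusters, and their order in a cluster follows the order of their anterior limits from head to tail. In the mesoderm of the body wall they are known for their part in placing the limbs. Retinoic acid and CDX factors are known to regulate them, and PBX and MEIS proteins to bind DNA with them.

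The study sequenced polyA RNA of mesenchyme dissected from chick (Gallus gallus) embryos, untreated, with 1 library for each tissue and Hamburger-Hamilton (HH) stage. The groups were neck at HH19, presumptive forelimb at HH15, forelimb bud at HH19, flank at HH19 and hindlimb bud at HH18, and 1 more library carried the label flank and neck at HH19. No genotype, strain or number of pooled embryos is given in the labels. The flank library's title carries a 9 where its tissue label gives HH19, and it was taken as HH19. Each library had 7130877 to 9623046 reads counted to genes, so that 3 reads were worth 0.312 to 0.421 CPM (read counts scaled to the library's total). With no replicate of any group, the intervals given are 95% intervals for counting error only, and nothing here measures the spread between embryos.

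PRRX1, a marker of limb and body wall mesenchyme, was at 117 to 491 CPM in the 6 libraries. SOX2 and PAX6 of the neural tube reached at most 0.281 and 0.140 CPM, and SOX10 of the neural crest 0.421 CPM. Their lists as a whole were not at 0: 7 neural genes summed to 50.3 to 89.6 CPM, with ELAVL4 at 21.9 to 37.1 CPM and DCX at 3.74 to 53.2 CPM. The 5 neural crest genes summed to 35.8 CPM in neck, 3.37 in presumptive forelimb, 18.2 in forelimb HH19, 1.09 in flank, 5.82 in hindlimb, and 48.7 under the label flank and neck. NGFR was the highest of the 5 in every library, at 35.3 CPM in neck and 46.3 CPM under the label flank and neck. The summed level of 5 blood genes was 40060 CPM in flank and 44.6 to 4440 CPM in the other libraries, and that of 5 endothelial genes was 149.6 CPM in neck and 40.7 to 71.3 CPM elsewhere. The summed level of 4 ectoderm genes was 29.5, 38.9 and 42.2 CPM in neck, presumptive forelimb and flank and 6.91 to 8.52 CPM in the other 3 libraries. The part of other cell types in the HOX levels was not tested, and in dissected tissue fewer cells of a type and less RNA per cell cannot be told apart.

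The library labelled flank and neck went against its label. HOXD12, a late-group gene of the growing limb bud, was at 237 CPM there, against 0.369 CPM in neck and 0.484 CPM in flank. HOXA11, of the middle limb segment, was at 81.3 CPM against 0.369 and 1.09 CPM. Forelimb HH19 and hindlimb had HOXD12 at 55.7 and 159 CPM and HOXA11 at 25.5 and 121 CPM, while presumptive forelimb had 0.561 CPM of each. TBX5, the forelimb T-box factor, was at 189 CPM against 166 in neck and 102 in flank, which does not set it apart from neck. Forelimb HH19 had TBX5 at 182 CPM. PITX1, the hindlimb homeodomain factor, was at 0.112 CPM against 0.737 in neck and 46.8 in flank. It is called the library labelled flank and neck throughout, it enters the fits only as an alternative, and its values are described apart.

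The entry of HOXB8 spans 174277 bases of chromosome 27 in the table and covers the entries of HOXB1, HOXB3 and HOXB5 on the same strand. How the authors' counting divided reads between them is not given in the sources used here, so the levels of these genes, HOXB8 included, are uncertain. The HOXB7 entry sits on unplaced sequence inside the span of the HOXC10 entry, also on the same strand, and is uncertain in the same way; HOXC10 was at 66.1 CPM in hindlimb and at 0 to 3.38 CPM in the other libraries. HOXD3, HOXD4, HOXA7 and HOXB9 overlap no other entry. Gene lengths were not available, so each gene is compared across libraries. Shares and sums over several genes, given further on, are of reads and not of transcripts, and are compared across libraries only.

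HOXA7, HOXB7, HOXB8 and HOXB9 were at 0.00471 to 0.224 of their flank level in neck, while HOXB1, HOXB3 and HOXD4 were higher in neck and HOXD3 had an interval that included no difference. HOXB9 was highest in flank and hindlimb and had 4 reads in neck. None of the 8 followed a straight head-to-tail trend that passed a test across the 5 libraries of 1 tissue each.

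**Figure D1:**
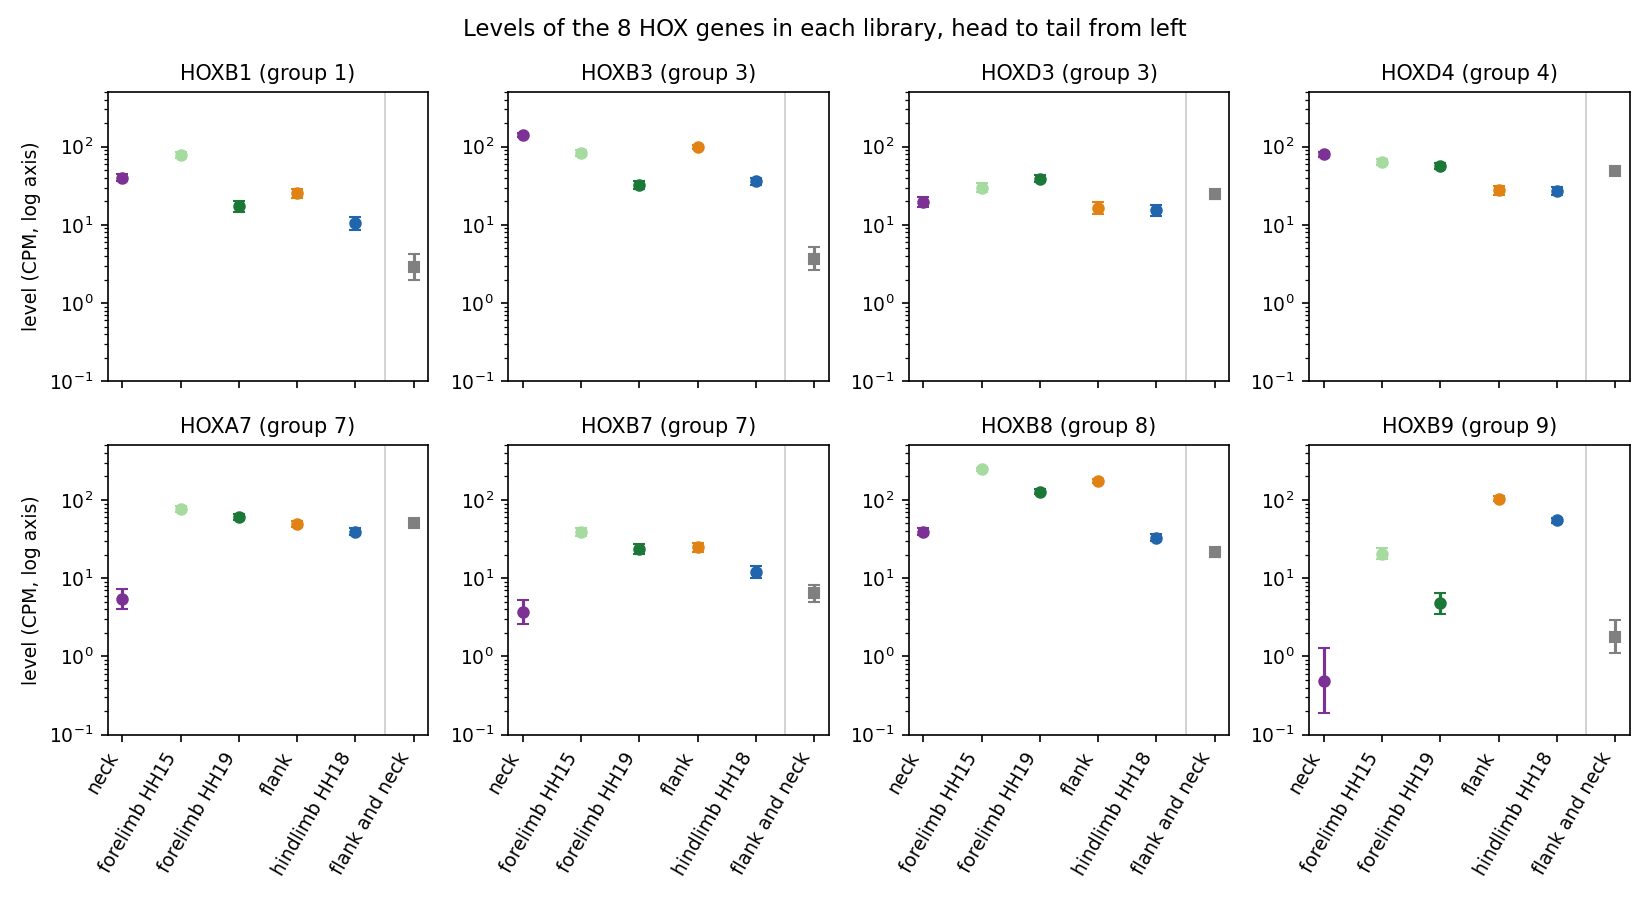
Level of each gene in CPM on a log axis, in the 5 libraries of 1 tissue each from neck to hindlimb with the library labelled flank and neck right of the grey line (grey squares). Points are single libraries and bars are 95% Wilson intervals for counting error; HOXA7, HOXB7 and HOXB9 are lowest of the 5 in neck, and HOXB1, HOXB3 and HOXB8 are lowest of all 6 in the one labelled flank and neck.

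HOXB1, which specifies a segment of the hindbrain and responds to retinoic acid, was at 40.1 CPM in neck, 77.7 in presumptive forelimb, 17.2 in forelimb HH19, 25.5 in flank, 10.5 in hindlimb, while the library labelled flank and neck had 2.91. Presumptive forelimb was the highest and hindlimb the lowest of the 5 libraries of 1 tissue each. All 4 steps between neighbours in this order had intervals above 1, the smallest being flank over forelimb HH19 at 1.48 times (1.19 to 1.85).

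HOXB3, a gene of the hindbrain and the pharyngeal region, was at 143 CPM in neck, 82.9 in presumptive forelimb, 32.3 in forelimb HH19, 99.4 in flank, 36.0 in hindlimb, while the library labelled flank and neck had 3.70. Neck and flank were above all 3 limb libraries. Forelimb HH19 and hindlimb, the 2 lowest, did not differ beyond counting error, with a ratio of 1.11 (0.945 to 1.31).

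HOXD3, which in the mouse shapes the first neck vertebrae, was at 19.7 CPM in neck, 29.9 in presumptive forelimb, 39.1 in forelimb HH19, 16.4 in flank, 15.4 in hindlimb, while the library labelled flank and neck had 24.6. Both forelimb libraries were at the top, and its spread over the 6 libraries was the smallest of the 8, with a root mean square deviation of 0.46 in log2(CPM + 1). Neck, flank and hindlimb followed one another without a difference beyond counting error, at 1.20 times (0.946 to 1.51) for neck over flank and 1.07 times (0.841 to 1.36) for flank over hindlimb.

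HOXD4, which in the mouse patterns the hindbrain and neck vertebrae, was at 79.6 CPM in neck, 64.1 in presumptive forelimb, 56.3 in forelimb HH19, 27.7 in flank, 27.4 in hindlimb, while the library labelled flank and neck had 49.5. Its order followed the body from head to tail. The step from presumptive forelimb to forelimb HH19 (1.14 times, 0.997 to 1.30) and that from flank to hindlimb (1.01 times, 0.842 to 1.21) were within counting error.

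HOXA7, a gene of the trunk, was at 5.41 CPM in neck, 77.1 in presumptive forelimb, 60.7 in forelimb HH19, 49.6 in flank, 39.3 in hindlimb, while the library labelled flank and neck had 50.9. Neck lay far below every other library, and the level descended from presumptive forelimb over forelimb HH19 and flank to hindlimb. Each of those steps had an interval above 1.

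HOXB7, another trunk gene, was at 3.69 CPM in neck, 38.4 in presumptive forelimb, 23.7 in forelimb HH19, 24.9 in flank, 12.0 in hindlimb, while the library labelled flank and neck had 6.39. It had the same highest and lowest library as HOXA7. Flank and forelimb HH19 did not differ beyond counting error, at 1.05 times (0.856 to 1.28).

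HOXB8, which in the mouse can induce a second polarizing region when it is switched on across the forelimb bud, was at 39.2 CPM in neck, 247 in presumptive forelimb, 128 in forelimb HH19, 175 in flank, 33.0 in hindlimb, while the library labelled flank and neck had 21.4. For HOXA7 and HOXB7 hindlimb lay well above neck, while for HOXB8 neck was 1.19 times hindlimb (1.01 to 1.39). That small difference takes no account of a common shift between libraries. The span of its entry makes these values uncertain.

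HOXB9, a gene of the chest region of the trunk, was at 0.491 CPM in neck, which is 4 reads, at 20.6 in presumptive forelimb, 4.78 in forelimb HH19, 104 in flank, 54.8 in hindlimb, while the library labelled flank and neck had 1.79. Flank and hindlimb were the highest, in that order, with a ratio of 1.91 (1.71 to 2.13). Every neighbouring step had an interval above 1. Over the 8 genes, 26 of 32 neighbouring steps had an interval above 1, and 6 included 1. Over all genes at 1 CPM, 22.4% of such steps had an interval above 1. The libraries were ordered by these same reads, so each step is at least 1 by construction. A gene with more reads has narrower intervals. This share of all genes, and the later shares with intervals above or below 1, were not matched for level.

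**Figure D2:**
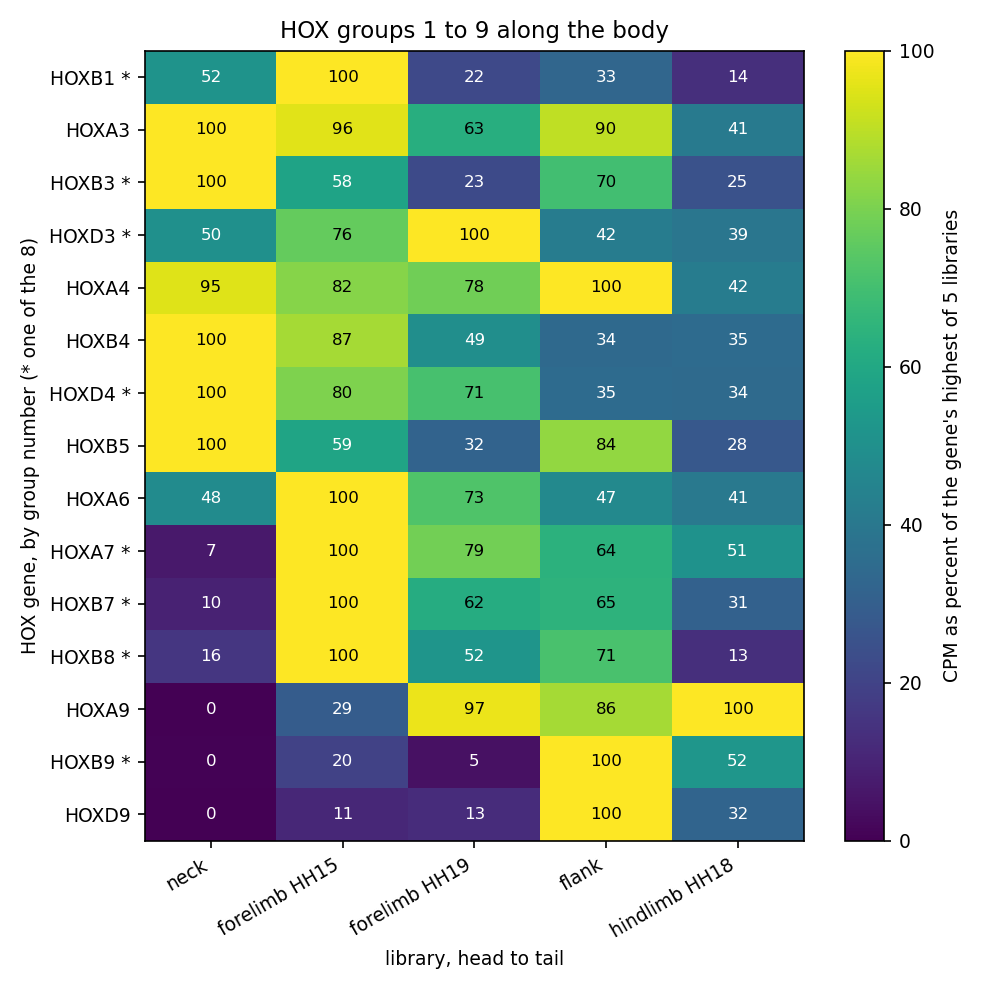
CPM of the 15 HOX genes of groups 1 to 9 used here that reached 1 CPM, each as a percentage of that gene's highest of the 5 libraries of 1 tissue each, with libraries from neck to hindlimb and genes by group number (asterisks mark the 8). The 6 genes of groups 7 to 9 have their lowest or next to lowest value in neck, while HOXA3, HOXB3, HOXB4, HOXD4 and HOXB5 have their highest there. For HOXA3 the Wilson interval in neck (64.3 to 75.8 CPM) overlaps those in presumptive forelimb (61.0 to 73.0) and flank (57.9 to 68.7). For HOXB4 that in neck (80.0 to 92.7 CPM) overlaps that in presumptive forelimb (68.5 to 81.2).

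Neck and flank are tissues of the same stage at either side of the forelimb, and their comparison places the genes along the axis without a change of stage. On the log2(CPM + 1) scale, 1 of the 8 genes was at least 2-fold higher in neck (HOXD4), 4 were at least 2-fold lower (HOXA7, HOXB7, HOXB8 and HOXB9) and 3 were under 2-fold. Of 11970 genes at 1 CPM in either library, 5.15% were at least 2-fold higher in neck and 2.25% lower, 7.39% in all. The median difference was -0.94 over the 8 genes and 0.14 over all genes. HOXD4 was 2.88 times higher in neck (2.47 to 3.36), HOXB1 1.57 times (1.32 to 1.88) and HOXB3 1.44 times (1.31 to 1.57).

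The genes of groups 7 to 9 were at 0.109 (0.0780 to 0.149) of the flank level in neck for HOXA7, 0.148 (0.0974 to 0.218) for HOXB7 and 0.224 (0.197 to 0.252) for HOXB8. HOXB9 was at 0.00471 (0.00128 to 0.0121) of it. Over the 15 HOX genes of groups 1 to 9 used here that reached 1 CPM, 6 of 6 in groups 7 to 9 had intervals below 1. In groups 1 to 6, 5 of 9 had intervals above 1, 4 included 1 and 0 lay below. The 5 above were HOXB1, HOXB3, HOXD4, HOXB4 and HOXB5, so 4 of the 5 are HOXB genes. HOXB5 was the nearest of them to 1, at 1.19 times (1.06 to 1.35). Of all genes, 31.4% had intervals above 1 and 9.92% below.

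Among the comparison genes at 1 CPM, the largest differences between neck and flank were those of HOXD9 (0 reads in neck, which allows up to 0.369 CPM, against 80.1 CPM in flank), HOXA9 (0.123 against 67.3 CPM), HOXB4 (86.1 against 29.5 CPM) and HOXB5 (71.9 against 60.3 CPM). TMM scaling, edgeR's correction for a common shift between libraries, moved the median of all genes by -0.14 on the log2 scale in this pair. It changed no call and no sign among the 8. The intervals were not computed with it, and a shift of that size is larger than the margin of HOXB5's lower bound of 1.06 over 1. Whether HOXB5 stays among the genes above 1 was not tested.

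**Figure D3:**
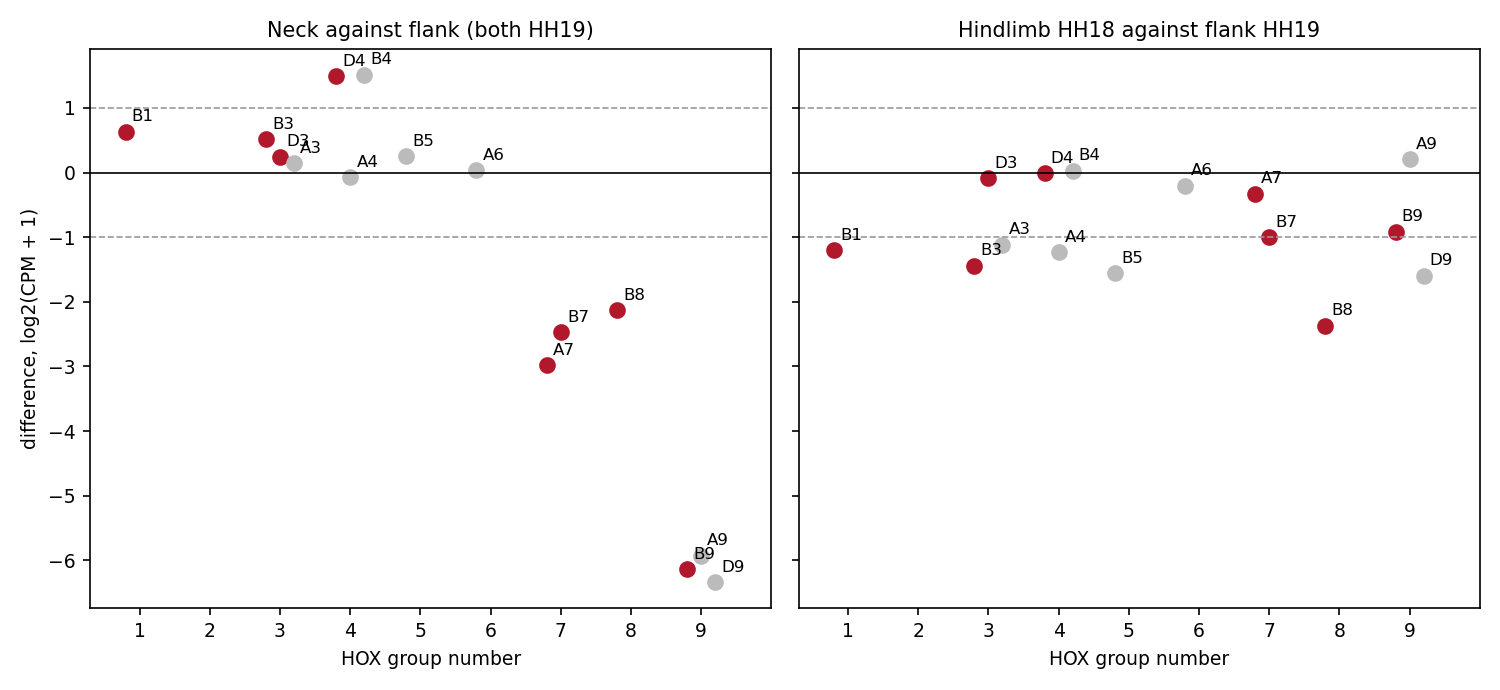
Difference in log2(CPM + 1) by HOX group number for neck against flank (left) and hindlimb against flank (right), with the 8 genes in red, other HOX genes in grey and dashed lines at 2-fold. In the left panel the 6 genes of groups 7 to 9 all lie below -1, and in the right panel no gene lies above 1.

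Forelimb HH19 against neck HH19 compares the next level of the axis at the same stage. Of the 8 genes, 4 were at least 2-fold higher in forelimb (HOXA7, HOXB7, HOXB8 and HOXB9), 2 were at least 2-fold lower (HOXB1 and HOXB3) and 2 were under 2-fold. Over 11959 genes, 3.46% were at least 2-fold higher in forelimb and 13.4% lower, 16.9% in all. The median difference was 1.32 over the 8 genes and -0.27 over all genes. The ratios of forelimb to neck were 11.2 (8.24 to 15.7) for HOXA7, 6.44 (4.37 to 9.82) for HOXB7, 3.27 (2.88 to 3.72) for HOXB8 and 9.72 (3.50 to 37.5) for HOXB9.

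HOXB3 was at 0.226 (0.197 to 0.259) of the neck level in forelimb HH19 and HOXB1 at 0.430 (0.350 to 0.526). HOXD3 went the other way from these neighbours in group number, at 1.99 times the neck level (1.64 to 2.42). TMM scaling moved the median of all genes by 0.22 on the log2 scale in this pair. It gave 5 genes at least 2-fold higher and 1 lower, with HOXD3 now past 2-fold at 1.19 and HOXB1 no longer so at -0.93.

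Against flank of the same stage, forelimb HH19 differed less. HOXD3 was at least 2-fold higher in forelimb at 2.38 times (1.94 to 2.93), HOXB3 and HOXB9 were at least 2-fold lower at 0.325 (0.282 to 0.374) and 0.0458 (0.0322 to 0.0634) of the flank level, and 5 genes were under 2-fold. Over 11818 genes, 4.15% were at least 2-fold higher in forelimb and 9.74% lower, 13.9% in all. The medians were -0.26 for the 8 genes and -0.10 for all. HOXD4 was just inside the threshold, at 2.03 times the flank level in CPM (1.73 to 2.40), and TMM scaling took its log2 difference past it to 1.09. HOXB7 stood at -0.07 with an interval of its ratio that includes 1 (0.779 to 1.17), and its sign turned to 0.03 under TMM scaling.

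Hindlimb HH18 lay below flank HH19 for most of the 8 genes, though it is the more posterior tissue. HOXB1, HOXB3 and HOXB8 were at least 2-fold lower in hindlimb, at 0.412 (0.321 to 0.524), 0.362 (0.318 to 0.411) and 0.188 (0.166 to 0.213) of the flank level, 0 genes were at least 2-fold higher and 5 were under 2-fold. Over 11754 genes, 3.5% were at least 2-fold higher in hindlimb and 8.88% lower, 12.4% in all. The medians were -0.96 for the 8 genes and -0.06 for all. HOXB7 was just inside the threshold, at 0.480 of the flank level in CPM (0.379 to 0.606), and HOXB9 was at 0.525 (0.470 to 0.586) of the flank level. Of the 8, all 4 genes of groups 7 to 9 had intervals below 1, as had 28.9% of all genes. With the comparison genes at 1 CPM added, 5 of 6 in groups 7 to 9 lay below 1. HOXA9 lay above it, at 1.16 times the flank level (1.04 to 1.29). HOXD3 and HOXD4 did not differ beyond counting error, and the sign of HOXD4, -0.01, turned to 0.05 under TMM scaling.

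Of the 8 comparison genes, 4 were at least 2-fold lower in hindlimb than in flank and 0 higher. The largest differences were those of HOXD9 (25.9 CPM in hindlimb against 80.1), HOXB5 (19.9 against 60.3), HOXA4 (45.4 against 108) and HOXA3 (28.6 against 63.1). Stage and tissue cannot be told apart in this pair, since the hindlimb library is of HH18.

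Both limb buds were compared as hindlimb HH18 against forelimb HH19. HOXB9 was 11.5 times higher in hindlimb (8.25 to 16.4), whereas HOXD3, HOXD4 and HOXB8 were at least 2-fold lower, at 0.394 (0.321 to 0.480), 0.487 (0.417 to 0.569) and 0.258 (0.227 to 0.293) of the forelimb level. HOXD4 was just past the threshold, and with library sizes that leave out globin genes and the gene with the most reads its log2 difference was -0.99 and 3 of the 8 genes were past it. The other 4 genes were under 2-fold. Over 11444 genes, 1.78% were at least 2-fold higher in hindlimb and 2.24% lower, 4.02% in all. The medians were -0.80 for the 8 genes and 0.02 for all. These differences share the forelimb HH19 or the hindlimb library with those given above.

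Between presumptive forelimb HH15 and the forelimb bud at HH19, HOXB1, HOXB3 and HOXB9 were at least 2-fold lower at the later stage, 0 genes were at least 2-fold higher and 5 were under 2-fold. Over 11807 genes, 3.43% were at least 2-fold higher and 6.17% lower at HH19, 9.6% in all. HOXB1 was at 0.222 (0.182 to 0.268) of its HH15 level, HOXB9 at 0.232 (0.158 to 0.333) and HOXB3 at 0.390 (0.335 to 0.452). The 5 HOXB genes and HOXA7, at 0.787 (0.695 to 0.891), had intervals below 1, as had 28.4% of all genes. Of the HOX genes used here, 6 of 9 in groups 1 to 6 and 4 of 6 in groups 7 to 9 lay below 1. The medians were -0.81 for the 8 genes and -0.10 for all genes. HOXD3 was 1.31 times higher at HH19 (1.10 to 1.57), and HOXD4 did not differ beyond counting error at 0.878 of its HH15 level, with a lower bound of 0.769 and an upper bound just over 1.

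**Figure D4:**
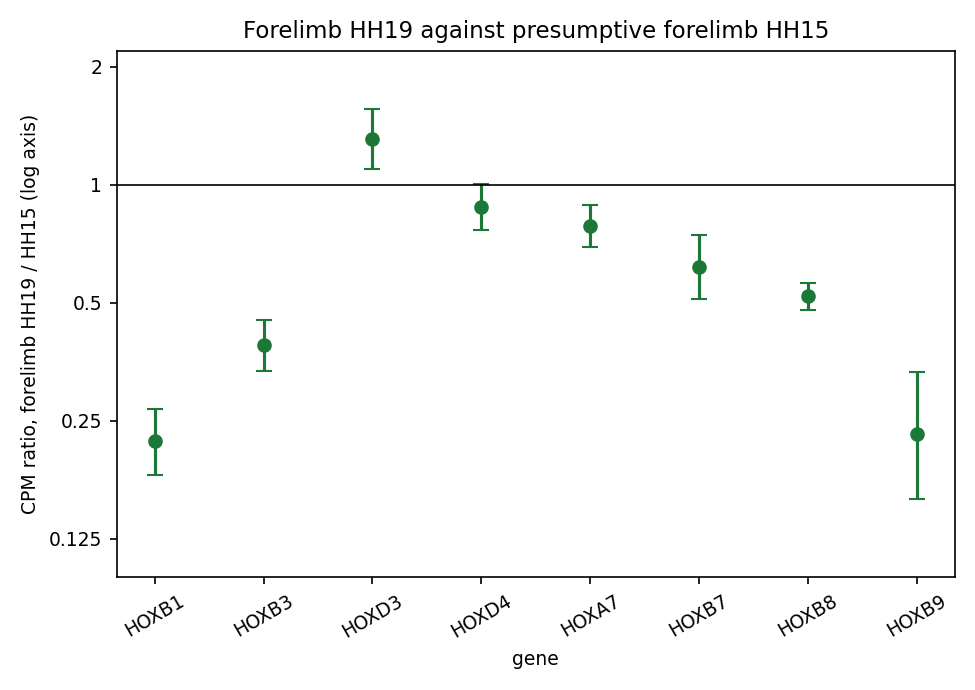
Ratio of the CPM in forelimb HH19 to that in presumptive forelimb HH15 for each of the 8 genes on a log axis, single libraries, with bars for the 95% exact interval of the ratio (counting error only). The 5 HOXB genes lie between 0.222 and 0.618, HOXA7 lies at 0.787, and HOXD3 lies above 1.

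Within the HOXB cluster the balance of early and late groups was taken as a share of reads, which needs no scaling between libraries. The HOXB shares given here and below were not planned in advance. HOXB7, HOXB8 and HOXB9 held 11.3% (10.2 to 12.4, Wilson interval) of the reads of the 7 HOXB genes in neck, 52.4% in presumptive forelimb, 57.7% in forelimb HH19, 58.7% in flank and 50.9% in hindlimb. Neck stood apart, and the other 4 lay close together. Without the HOXB8 entry, an alternative added after the data were seen, the shares were 1.21%, 17.6%, 19.9%, 37.6% and 40.9% in the same order.

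Without HOXB8 the shares thus followed the order of the tissues from head to tail, which the shares with HOXB8 did not. The higher share in hindlimb than in flank is not a higher level of the late genes. HOXB7 and HOXB9 were at 0.480 and 0.525 of their flank level in hindlimb. HOXB1, HOXB3 and HOXB5 were at 0.412, 0.362 and 0.329 of theirs, and HOXB4 at 1.02. HOXB1, HOXB3 and HOXB5 lie within the HOXB8 span and HOXB7 within that of HOXC10, so both sets of shares are uncertain. The 2 forelimb values (16.1 to 19.1 and 17.7 to 22.3) had overlapping intervals, as had flank and hindlimb (35.8 to 39.4 and 38.5 to 43.3). HOXB9 was also taken as a share of HOXB3 and HOXB9 reads, an early and a late HOXB gene, which leaves out HOXB1. This share was 0.343% in neck (0.134 to 0.879), 19.9% in presumptive forelimb (17.2 to 23.0) and 12.9% in forelimb HH19 (9.53 to 17.2). Flank had 51.2% (48.8 to 53.6) and hindlimb 60.4% (57.1 to 63.6).

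The sum over each cluster's genes of groups 1 to 9 used here differed most for HOXB. It was 384 CPM in neck, 583 in presumptive forelimb, 272 in forelimb HH19, 519 in flank, 196 in hindlimb, while the library labelled flank and neck had 46.5. HOXA summed to 229 to 362 CPM over the 6 libraries and HOXD to 69.1 to 124 CPM. Both later limb buds were thus below neck, presumptive forelimb and flank for HOXB.

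**Figure D5:**
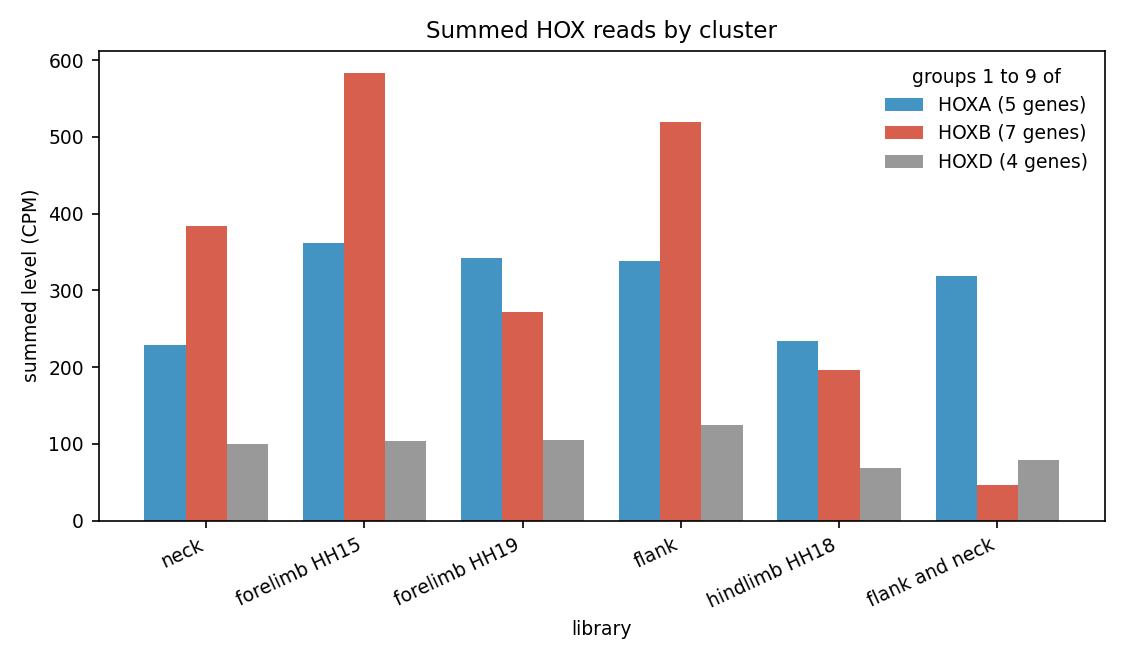
Summed CPM of the HOXA (blue), HOXB (red) and HOXD (grey) genes of groups 1 to 9 in each of the 6 libraries, single libraries with no error bar. The HOXD bars leave out the entry named HOXD10, whose description names HOXD8. The HOXB bar is 46.5 CPM in the library labelled flank and neck and 196 to 583 CPM in the others, while the HOXA bars lie between 229 and 362 CPM.

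A trend over body position was fitted to the 5 libraries of 1 tissue each, with neck at rank 1, both forelimb libraries at 2, flank at 3 and hindlimb at 4. The quasi-likelihood test of edgeR, adjusted by Benjamini-Hochberg over 12486 genes, called 2 genes, 0.016%, and 0 of the 8. At an unadjusted p below 0.05 there were 365 genes, 2.92%, among them 2 of the 8. DESeq2 called 26 genes and limma 0, and neither called any of the 8. The p-values here measure how far single libraries lie from the trend, not the spread between embryos.

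Per step towards the tail, HOXB9 changed by 2.24 ± 0.72 (SE) on the log2 scale (edgeR adjusted p = 0.999, unadjusted 0.0200) and HOXD4 by -0.52 ± 0.13 (edgeR adjusted p = 0.999, unadjusted 0.00613). DESeq2 gave them adjusted p-values of 0.129 and 0.173. The other 6 genes had coefficients of -0.67 to 0.33. The median coefficient was -0.23 over the 8 genes and -0.00 over all genes tested. HOXC10 (4.03 ± 0.20, edgeR adjusted p = 0.00653) and TBX4, the hindlimb T-box factor (3.91 ± 0.26, edgeR adjusted p = 0.0240), were the 2 genes called. Their number fell to 0 without the neck, presumptive forelimb or hindlimb library (180 to 316 at an unadjusted edgeR p below 0.05), was 1 without forelimb HH19 and 11 without flank.

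Limb against non-limb, the tissue classes that the series title names, set 3 limb libraries against neck and flank. edgeR called 17 of 12486 genes (0.136%) and 0 of the 8, with 2926 genes (23.4%) and 1 of the 8 at an unadjusted p below 0.05. HOXB3 came nearest, at -1.14 ± 0.39 (edgeR adjusted p = 0.155). DESeq2 called it at an adjusted p of 0.0453, as it called 1336 of 11513 genes (11.6%). limma did not call HOXB3 (adjusted p = 0.124), and edgeR called it without presumptive forelimb at -1.66 (adjusted p = 0.0227). Without that library edgeR called 620 genes in all, and with any 1 of the other 4 left out it called 0 (1535 to 2345 at an unadjusted p below 0.05).

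HOXB3 was also the 1 gene of the 8 whose limb values had no overlap with those of neck and flank, with 32.3 to 82.9 CPM in limb and 99.4 to 143 CPM outside it. Of all genes tested, 27.5% were lower in limb without overlap and 42.9% did not overlap in either direction. The other 7 genes had coefficients of -0.91 (HOXB9) to 1.17 (HOXA7), with edgeR adjusted p-values of 0.279 to 0.969. The median was 0.30 over the 8 genes and -0.02 over all genes.

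Reads of the HOXB genes were few in the library labelled flank and neck. HOXB1 and HOXB3 were at least 2-fold below both neck and flank, 2 of the 8, against 5.64% of 12388 genes. None of the 8 was at least 2-fold above both, against 5.17% of genes. HOXB1 was at 0.114 (0.0729 to 0.172) and HOXB3 at 0.0372 (0.0254 to 0.0527) of their flank level, the lower of both. HOXB8 also lay below both, at 0.546 (0.454 to 0.655) of neck, and 48.3% of all genes were below both. HOXD4, HOXB7 and HOXB9 lay between neck and flank, and HOXD3 and HOXA7 lay above both, as did 32.8% of all genes. HOXB3 was also at least 2-fold below both neck and flank in forelimb HH19 (32.3 CPM) and hindlimb (36.0 CPM), and HOXB1 in hindlimb (10.5 CPM).

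By cluster, 5 of the 7 HOXB genes had their lowest value of 6 libraries in the library labelled flank and neck, HOXB4 and HOXB5 among them at 5.49 and 4.82 CPM. Of the other 8 HOX genes that reached 1 CPM, 1 did (HOXA4), and over all 12737 genes the share was 26.3%. Of the 8 genes, HOXB1, HOXB3 and HOXB8 had their lowest value there. HOXA7, HOXD3 and HOXD4, in contrast, were at 50.9, 24.6 and 49.5 CPM, within their ranges over the 5 libraries of 1 tissue each.

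Cofactors and upstream regulators of HOX genes were looked up as a list of 38, of which 27 were found and 22 reached 1 CPM in neck or flank. CRABP1, a retinoic acid binding protein, was the 1 list gene at least 2-fold higher in neck, at 340 against 90.8 CPM. Of all genes, 5.15% were at least 2-fold higher in neck and 2.25% lower. CDX2, a caudal factor that activates trunk HOX genes, had 0 reads in neck (up to 0.369 CPM) and 5.92 CPM in flank. RXRG, a retinoid receptor, was at 8.48 against 52.5 CPM, so 2 list genes were at least 2-fold higher in flank. RARA, another receptor, had the next largest difference, at 15.97 against 9.19 CPM.

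CDX2 was at 12.3 CPM in presumptive forelimb, 0.126 in forelimb HH19 and 1.04 in hindlimb. Of 25 list genes tested, edgeR and limma called 0 in either fit, with 1 at an unadjusted edgeR p below 0.05 for body position (RARA) and 8 for limb against non-limb, where 23.4% of all genes reached it. DESeq2 called 0 for body position and 5 for limb against non-limb, where it called 11.6% of all genes. In the library labelled flank and neck, MEIS1, ALDH1A2 and RARB were at least 2-fold below both neck and flank. They were 3 of the 22 list genes at 1 CPM in neck or flank, and were named after their values were seen. HOXB1 and HOXB3 and 5.64% of all genes were at least 2-fold below both there too. ALDH1A2, which makes retinoic acid, was at 824 CPM in neck, 531 in presumptive forelimb, 25.8 in forelimb HH19, 1370 in flank, 62.1 in hindlimb and 13.0 in that library. MEIS1, the HOX cofactor, was at 255, 156, 86.0, 203, 73.3 and 32.9 CPM in the same order. CYP26B1, which degrades retinoic acid, was the 1 list gene at least 2-fold above both there, as were 5.17% of all genes. It was at 54.9 CPM in that library against 9.83 in neck and 11.8 in flank. The part of the list genes in the HOX levels was not tested.

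Profiles were also compared over the 6 libraries, by the root mean square difference of log2(CPM + 1) after each gene was centred on its mean, among 12737 genes. Over these libraries the smallest difference among the 8 was 0.46, between HOXD3 and HOXD4, and the least alike were HOXB9 and HOXD4 at 2.73. HOXD3 and HOXD4 deviated from their own means by only 0.46 and 0.57, so their small difference does not show a shared order of libraries. HOXD3 was highest in forelimb HH19 and HOXD4 in neck. Without the library labelled flank and neck, an alternative added after the data were seen, HOXA7 and HOXB7, of the same group in different clusters, were the most alike at 0.40, HOXD3 and HOXD4 stood at 0.51, and HOXB9 and HOXD4 were still the least alike at 2.79. HOXB7 and HOXB8 differed by 0.62 over 6 libraries and 0.58 over 5, and HOXB1 and HOXB3 by 0.74 and 0.70.

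PRTG, protogenin, was the closest of all genes to HOXB1, at 0.12 over 6 libraries and 0.13 over 5. It was at 106 CPM in neck, 237 in presumptive forelimb, 49.5 in forelimb HH19, 77.5 in flank, 37.8 in hindlimb, while the library labelled flank and neck had 9.97. Its highest and lowest libraries were those of HOXB1. LOC768852 was closest to HOXD4 and KIAA1211 to HOXB7 over both 6 libraries (0.15 and 0.36) and 5 (0.12 and 0.37).

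For the other 5 genes the closest profile depended on the library labelled flank and neck. HOXB3 was closest to IRX5, a homeodomain factor (0.37), and TBX2, a T-box factor (0.39), but without that library IRX5 was in place 315 and C9orf167 was closest (0.07). HOXB9 was closest to EVX1, a homeobox gene of the posterior body (0.80), and without that library to HOXD9 (0.74). HOXA7 was closest to ENSGALG00000023418 (0.58) and then to HOXB7 (0.40), HOXB8 to NOTUM (0.54) and then to DUSP14 (0.45), and HOXD3 to PDLIM1 (0.16) and then to Q8AV70_CHICK (0.11). Genes with a small range, such as HOXD3 and HOXD4, find close profiles more easily, so these distances are not comparable between the 8.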

How the data were processed

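Per the deposited table, the reads columns hold raw counts per gene, and the authors' normalised columns hold CPM, each equal to its count column times a constant. The authors' fold columns are a ratio of 2 single libraries' CPM, and the p-value columns deposited by the authors name no test; neither entered a result here. TopHat 1.4.0 and galGal4 are named in the submitters' processing notes; the read counter and annotation are not given in the sources used here. The table's coordinates were not printed, because their naming differs from that build. Of its per-sample columns, 0 were left unused.

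The HOX genes were matched by symbol or description; an entry named HOXD10 whose description names HOXD8 was kept out of the groups. A further HOX gene is not reported here. Members, gene lists and comparisons were chosen with earlier results of these data known. Library pairs have 1 library each and no test: differences are on log2(CPM + 1), which understates those of low genes, for genes at 1 CPM or more in either library. Such a difference was counted at 2-fold or more. Ratios carry exact conditional binomial intervals and levels Wilson intervals at 95%; these intervals and the floor of 3 reads cover counting error only.

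Two-sided edgeR quasi-likelihood tests used TMM scaling, genes at 1 CPM in at least 1 library and a Benjamini-Hochberg adjusted p below 0.05. They were fitted for a body position trend (common biological coefficient of variation 0.361) and for limb against non-limb (0.284). The fits were checked on simulated data for the sign and size of planted effects, at a spread below that of the position fit. Alternatives were other size factors, filters, pseudocount, thresholds and scalings, DESeq2, limma, the added library labelled flank and neck, and each library left out. The genes named are all 8, the 4 comparison HOX genes and 4 regulators with the largest neck to flank difference, the 4 HOX genes with the largest hindlimb to flank difference, and up to 3 nearest profiles per gene. Fits ran in R 4.3.3 (DESeq2 1.42.0, limma 3.58.1, edgeR 4.0.16). Tables and figures used matplotlib 3.10.9, scipy 1.17.1, pandas 2.3.3 and numpy 2.4.6 under Python 3.11.15.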

Additional observations from a re-analysis of the deposited data

How the results depend on the processing

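Counts of the 8 genes past the threshold in a library pair stayed within 1.5 times of the value given under other pseudocounts, filters and scalings. At 1.5-fold and 3-fold in place of 2-fold, they were 7 and 2 of 8 for hindlimb against forelimb HH19, and 5 and 1 for hindlimb against flank. Forelimb HH19 against HH15 gave 5 at 1.5-fold. Where the library labelled flank and neck was added to a fit, it counted as non-limb and at body position rank 2. Its HOXD12 and HOXA11 levels went against that label, so a change with it added does not test the classes alone. Genes called over body position numbered 26 with DESeq2, 0 with limma (323 at an unadjusted p below 0.05) and 0 to 11 with 1 library left out. Those for limb against non-limb numbered 259 without a filter, 1336 with DESeq2, 173 with limma, 0 with the library labelled flank and neck added (2207 at an unadjusted edgeR p below 0.05) and 0 to 620 with 1 library left out. Of the 8 genes, 1 was called with DESeq2 and 0 to 1 with 1 library left out, HOXB3 each time.

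Signs of coefficients that did not pass the edgeR test turned in some fits. With 1 library left out, the coefficients over body position were -0.41 to 1.59 for HOXA7, -0.64 to 1.37 for HOXB7 and -1.08 to 1.15 for HOXB8. Those for limb against non-limb were -1.08 to 0.64 for HOXB1, -0.34 to 1.98 for HOXB8, -2.03 to 5.93 for HOXB9 and -0.49 to 0.87 for HOXD4. limma gave -0.27 for HOXB1 and 1.26 for HOXB9. The cause was not tested. No paired analysis was possible because each group has 1 library. With 1 library a group, these data limit statements to single libraries.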

Other observations

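The entries gga-mir-10b, a microRNA, and HOXD10, whose description names HOXD8, belong to the HOXD cluster and were named after their values were seen. The level of gga-mir-10b was 10.3 CPM in neck, 46.1 in presumptive forelimb, 46.7 in forelimb HH19, 22.1 in flank, 22.1 in hindlimb, while the library labelled flank and neck had 49.2. Neck was the lowest library, as it was for HOXA7, to whose profile this entry was second closest at 0.63. A polyA library holds longer transcripts over a microRNA rather than its mature form. The HOXD10 entry was at 11.3, 174, 397, 149.8, 207 and 341 CPM in the same order, again lowest in neck. HOXD3 and HOXD4 were not lowest there, at 19.7 and 79.6 CPM.

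HOXA6, the 1 group 6 gene in the table, peaked in presumptive forelimb as HOXA7 did, and neck was at 48.2% of that peak, against 7.01% for HOXA7.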
